A study of Sus scrofa with 33 samples.

Results

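Transcription factors that set up and maintain the hormone-producing lineages of the pituitary were examined in 33 pig pituitaries. The genes listed were POU1F1, PITX1, LHX3, LHX4, HESX1, SOX2, TBX19 and GATA2, and a probe belonged to them when the array's gene name, whatever its case, or the symbol in its description was 1 of these names. That found 9 of the 60305 probes of the array, for 5 of the 8 genes, on an array that names 11758 genes. POU1F1 had 4 probes, SOX2 had 2, and PITX1, LHX3 and GATA2 had 1 each. LHX4, HESX1 and TBX19 had no probe by this rule and have no value here.

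The samples came from castrated male pigs raised in Guadeloupe, of Large White (LW), Creole (CR) and F1 (LW × CR) breed, killed either under thermoneutrality (TN) or after a heat exposure (heat stress, HS). There were 5 LW TN, 6 LW HS, 5 CR TN, 6 CR HS, 6 F1 TN and 5 F1 HS arrays, 1 per animal, so that each breed had 11 arrays, TN 16 and HS 17. The temperature field read 24 °C in TN samples and 30 °C in HS samples, while the growth protocol named an exposure of 5 days at 32 °C. Slaughter of the TN pigs preceded the heat exposure, so that temperature and day of slaughter cannot be told apart. The array LW HS 3 carried LW in its title and Creole in its breed field, and was analysed as LW.

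In the developing gland these factors act in sequence. PITX1, a bicoid-type homeodomain protein, and the LIM-homeodomain protein LHX3 are needed early and stay on in most hormone cells. SOX2, an HMG-box protein, marks the stem and progenitor cells that persist in the adult gland. POU1F1 (Pit-1) is required for somatotrophs, lactotrophs and thyrotrophs and binds the promoters of GH1, PRL and TSHB. GATA2, a zinc-finger protein, acts with POU1F1 in thyrotrophs and without it in gonadotrophs.

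The 4 POU1F1 probes, which are compared throughout, carry different transcript annotations, and the transcripts themselves were not checked. In the annotation stored with the array, A_72_P077591 was assigned to 3 Ensembl transcripts of the gene. A_72_P413713 was assigned to 1 of these and A_72_P537603 to the other 2, so that this pair shared none. A_72_P413723 was designed on a cDNA described as the beta form of pig Pit-1. The probes are printed 5′ to 3′ from the array files, and capitals mark an ATG at the first position of a SOX2 probe. Whether it is a start codon was not checked. For A_72_P077591 and for the PITX1 probe only the leading 30 of 60 bases are shown.
POU1F1 A_72_P413713: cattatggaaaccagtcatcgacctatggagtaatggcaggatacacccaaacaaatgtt
POU1F1 A_72_P537603: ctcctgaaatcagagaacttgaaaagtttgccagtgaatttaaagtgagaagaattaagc
POU1F1 A_72_P413723: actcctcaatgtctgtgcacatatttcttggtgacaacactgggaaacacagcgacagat
POU1F1 A_72_P077591: ctctaatagttctgttgaactaacagtttt
SOX2 A_72_P442012: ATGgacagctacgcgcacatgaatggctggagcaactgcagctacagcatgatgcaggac
PITX1 O5890: taaatctgtctatatcgactagttcatgta

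The PITX1 probe O5890 and the second SOX2 probe, O992, were designed on human transcripts. The strand they read was not settled here: of 1840 probes of this design type that shared 25 bases with a pig probe, 1716 (93.3%) lay on the same strand as it and 124 (6.74%) on the opposite one. None of the 9 probes shared 25 bases with any other probe of the array.

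All values are log2 of quantile-normalized spot intensity. Every one of the 9 probes was well above background on all 33 arrays and no spot was saturated. A level is compared only with the same probe on other arrays, since probes differ in how brightly they bind. Between 73.5% and 82.2% of the spots of an array were well above background. The hormone genes that define the gland were bright (GH1 19.02, POMC 19.01, CGA 18.99, PRL 18.87 on average). AVP and OXT, hormones released from the posterior lobe, were also bright, at 16.99 and 15.67, although the methods name the anterior lobe as the tissue taken.

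Tests come from limma, two-sided, with Benjamini-Hochberg adjustment over the 47083 probes kept, and "called" means an adjusted p under 0.05. The fits treat arrays as independent, although littermates were among the pigs of each breed, so the breed SEs take no account of litter. Whole tissue was ground, so fewer cells of a type and less RNA per cell cannot be told apart in any of these values.

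A pair of arrays stood apart from the rest and touches several results. On LW TN 2 and CR TN 1, both on slide 2, TSHB, the beta subunit of thyrotropin, was 8.55 and 10.57, whereas the other 31 arrays lay between 13.70 and 16.35. The 7 hormone genes, TSHB among them, averaged 16.62 and 16.94 there, against 17.61 to 18.12 elsewhere. FSHB (15.51 and 15.59), LHB (17.10 and 16.87) and PRL (18.20 and 18.76) lay below their means over all arrays (16.31, 17.57 and 18.87). GH1 read 18.88 and 19.03, POMC 19.12 and 18.98 and CGA 18.95 and 18.78, beside means of 19.02, 19.01 and 18.99. The 7 endothelial genes averaged 11.18 and 10.76, against 9.68 to 10.39, and the 12 stem and progenitor genes 10.74 and 10.55, against 9.96 to 10.44. OTX2, a homeodomain factor of forebrain and posterior pituitary, was 11.41 and 11.54, above the 6.84 to 9.82 of the other arrays. The 3 posterior lobe genes (AVP, OXT and GFAP) averaged 13.21 and 13.13 there, within the 12.71 to 13.41 of the other arrays. The 32 kept genes of the list that OTX2 comes from averaged 9.62 and 9.47, within 9.39 to 9.69. Results that rest on these arrays are therefore also given without both, an alternative chosen after the data were seen, and the part these markers play in them was not tested.

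POU1F1 was lower in LW than in CR pituitaries. On the Pit-1 beta probe, A_72_P413723, LW TN arrays read 7.48, 6.43, 7.33, 7.04 and 7.01, and LW HS arrays 6.97 to 7.47 with a median of 7.25. CR TN arrays read 7.27, 7.49, 7.49, 7.33 and 7.34, and CR HS arrays 7.36 to 7.77 with a median of 7.60. The breeds overlapped, but each of the 11 LW arrays lay below the CR mean. The means were 7.14 ± 0.31 (SD, n = 11) in LW and 7.50 ± 0.17 (SD, n = 11) in CR, a log2 difference of -0.36 (SE 0.09, adjusted p = 0.0136), or 0.782 times the CR level.

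On A_72_P077591, the probe assigned to all 3 transcripts, LW TN arrays read 11.30, 10.59, 11.40, 11.09 and 11.53 and CR TN arrays 11.18, 11.45, 11.68, 11.42 and 11.69. LW HS arrays ran from 11.06 to 11.48 (median 11.34) and CR HS arrays from 11.42 to 11.83 (median 11.75), so that the ranges overlapped only at their edges under HS. The breed means were 11.26 ± 0.27 and 11.59 ± 0.20 (SD, n = 11 each), and the difference was -0.34 (SE 0.10, adjusted p = 0.0367), with 11 of 11 LW arrays below the CR mean. These were 2 of the 9 probes called between LW and CR, beside 6.53% of all probes in that comparison.

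The other 2 POU1F1 probes had the same sign without a call. A_72_P413713 averaged 10.05 ± 0.33 in LW and 10.37 ± 0.21 in CR (difference -0.32, SE 0.10, adjusted p = 0.056), and A_72_P537603 averaged 8.24 ± 0.49 and 8.50 ± 0.45 (difference -0.27, SE 0.19, adjusted p = 0.494). Within slides, the LW mean was below the CR mean on 5 of 5 slides for each of the 4 probes, where slide 1 held 3 arrays, 1 each of LW TN, CR HS and F1 HS. The F1 mean lay between the breed means on A_72_P077591 (11.38 ± 0.28) and A_72_P413723 (7.40 ± 0.23), while F1 arrays on the former ran from 11.08 to 11.86, and neither probe differed from LW or from CR by a called amount.

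The POU1F1 calls did not rest on the arrays that stood apart. Without both, the differences were -0.31 on A_72_P077591 (adjusted p = 0.0338) and -0.31 on A_72_P413723 (adjusted p = 0.0214). With the processed signal scaled to the 75th percentile in place of quantile normalization, the call on A_72_P077591 was lost (-0.31, adjusted p = 0.108) and A_72_P413723 was still called (-0.47, adjusted p = 0.00735). Both calls were lost with the array of conflicting labels taken as CR, and only that on A_72_P077591 with it left out. With LW HS 3 taken as CR, the differences were -0.30 and -0.31 with adjusted p of 0.102 and 0.0707, and with LW HS 3 left out the adjusted p were 0.0548 and 0.0248. Leaving out each array in turn kept the call on A_72_P413723 in 33 of 33 fits and on A_72_P077591 in 22 of 33, where the difference ranged from -0.37 to -0.28.

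**Figure D1:**
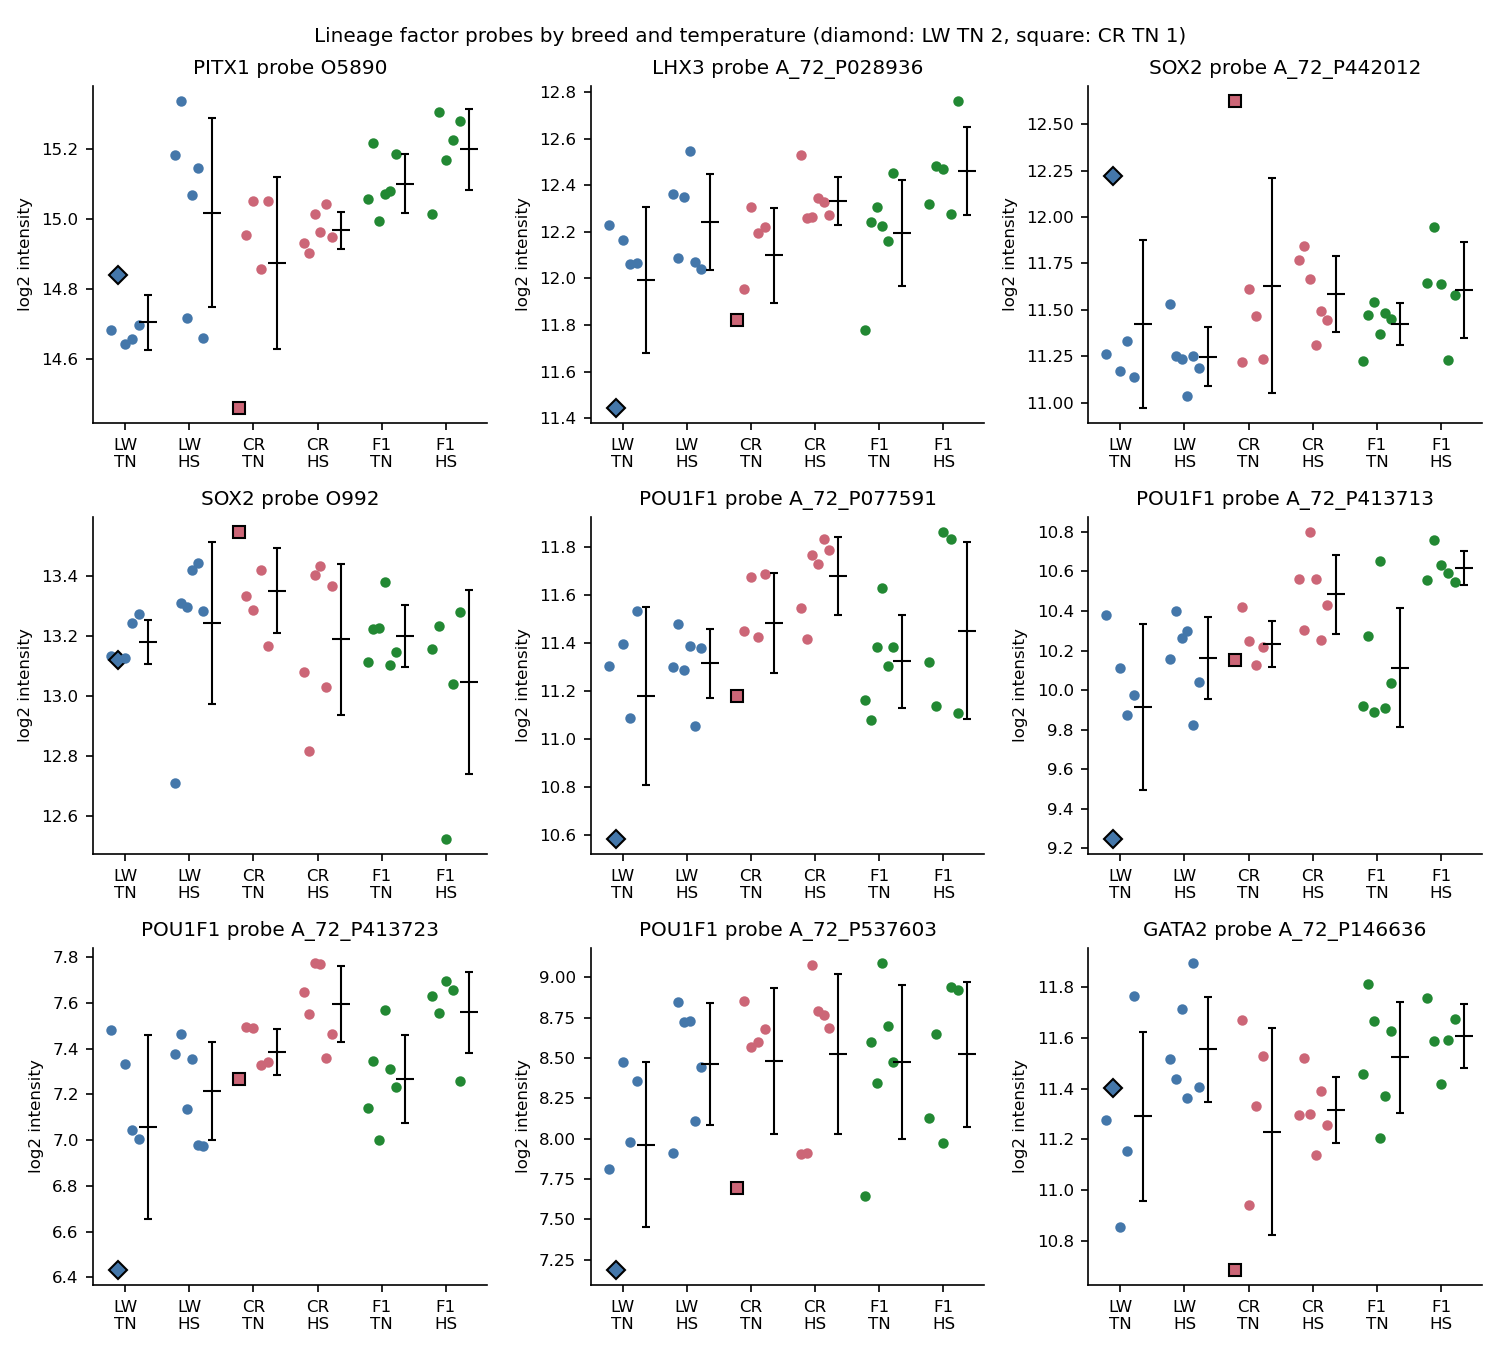
Log2 intensity of the 9 lineage factor probes (y axis, a separate scale for each probe) in the 6 breed-by-temperature groups (x axis), with 1 point per array and the mean ± SD of each group beside it. LW TN 2 (diamond) gives the lowest value of all arrays on the 4 POU1F1 probes and on LHX3, and CR TN 1 (square) the highest on both SOX2 probes.

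PITX1 was highest in F1 pituitaries. LW TN arrays read 14.68, 14.84, 14.64, 14.66 and 14.70, and LW HS arrays ran from 14.66 to 15.34 with a median of 15.11. CR TN arrays read 14.46, 14.95, 15.05, 14.86 and 15.05, and CR HS arrays ran from 14.90 to 15.05 with a median of 14.96. F1 TN arrays ran from 15.00 to 15.22 (median 15.08) and F1 HS arrays read 15.02, 15.31, 15.17, 15.23 and 15.28. The lowest F1 array was above the mean of either parental breed, and F1 overlapped with the brighter LW HS and CR arrays.

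The breed means of PITX1 were 14.88 ± 0.26 in LW, 14.93 ± 0.17 in CR and 15.15 ± 0.11 in F1 (SD, n = 11 each). F1 exceeded the mean of both parental breeds by 0.26 log2 units (SE 0.06, adjusted p = 0.0197, 1.20 times), LW by 0.29 (SE 0.07, adjusted p = 0.0391) and CR by 0.24 (SE 0.07, adjusted p = 0.0443). These comparisons share the F1 arrays. PITX1 was the 1 probe of 9 called in each of them, beside 2.75% of all probes against the parental mean, 1.43% against LW and 6.66% against CR. The F1 mean was above the parental mean on 5 of 5 slides, by 0.10 to 0.33.

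Without the arrays that stood apart, F1 exceeded the parental mean by 0.24 (adjusted p = 0.0243), while the difference from CR alone fell to 0.19 with an adjusted p of 0.0897. Leaving out each array in turn kept the call against the parental mean in 32 of 33 fits, against LW in 21 and against CR in 18. The call against LW was lost with LW HS 3 taken as CR (adjusted p = 0.0817) and with LW HS 3 left out (adjusted p = 0.0685). With the processed signal scaled to the 75th percentile in place of quantile normalization, the 3 calls were lost, with an adjusted p of 0.054 against the parental mean (0.29), 0.116 against LW (0.30) and 0.0709 against CR (0.28).

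GATA2 was also brightest in F1 but was not called. Its breed means were 11.44 ± 0.29 in LW, 11.28 ± 0.28 in CR and 11.56 ± 0.18 in F1 (SD, n = 11 each). F1 minus CR was 0.30 (SE 0.10, adjusted p = 0.0759, with 10 of 11 F1 arrays above the CR mean), F1 minus the parental mean 0.22 (SE 0.09, adjusted p = 0.195), and LW minus CR 0.16 (SE 0.10, adjusted p = 0.459). CR TN held the lowest array, CR TN 1 at 10.69. Without CR TN 1 and LW TN 2, F1 minus CR was 0.24 (adjusted p = 0.149).

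LHX3 differed little between breeds. It averaged 12.13 ± 0.28 in LW, 12.23 ± 0.19 in CR and 12.32 ± 0.24 in F1 (SD, n = 11 each), the largest gap being F1 minus LW at 0.21 (SE 0.09, adjusted p = 0.247).

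On the SOX2 probe A_72_P442012, LW TN arrays read 11.26, 12.22, 11.17, 11.33 and 11.14 and CR TN arrays 12.62, 11.22, 11.61, 11.47 and 11.23, where 12.22 and 12.62 belong to the arrays that stood apart. The other 31 arrays lay between 11.04 and 11.95. LW averaged 11.33 ± 0.32 and CR 11.61 ± 0.39 (SD, n = 11 each), a difference of -0.28 (SE 0.13, adjusted p = 0.247). Without both arrays the difference was -0.27 (SE 0.08). They hold the extreme values of this probe itself, so this is a description and no test. LW was below CR on 5 of 5 slides with all arrays in. Leaving out CR TN 1 alone gave -0.17 (adjusted p = 0.441) and leaving out LW TN 2 alone -0.37 (adjusted p = 0.0432). On O992 the LW minus CR difference was -0.05 (SE 0.09, adjusted p = 0.86). Deviations of the 2 probes from their group means had a Pearson r of -0.06 over 33 arrays, 0.43 with slide means removed and -0.31 without LW TN 2 and CR TN 1, given as a description, since they share the arrays.

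**Figure D2:**
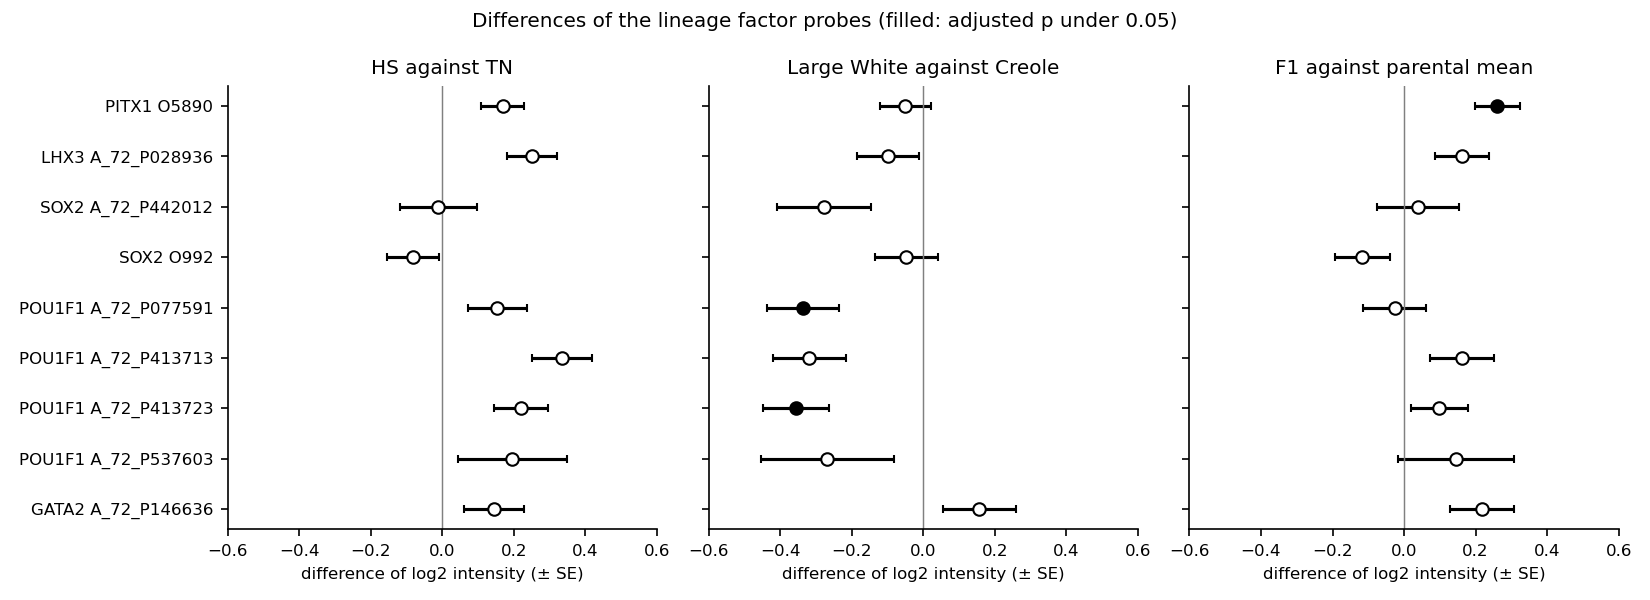
Differences of log2 intensity for the 9 probes, as limma estimates ± SE, for HS minus TN, LW minus CR and F1 minus the mean of both parental breeds; filled points have an adjusted p under 0.05. The filled points are A_72_P077591 and A_72_P413723 of POU1F1 at -0.34 and -0.36 in LW minus CR, and PITX1 at 0.26 in F1 minus the parental mean.

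Heat stress changed none of the 9 probes by a called amount, where 0.0191% of all probes were called. At an unadjusted p under 0.05 it was 4 of 9, beside 8.68% of all probes: A_72_P413713 and A_72_P413723 of POU1F1, LHX3 and PITX1, all higher in HS. On A_72_P413713, TN arrays averaged 10.09 ± 0.31 (SD, n = 16) and ran from 9.25 to 10.65 with a median of 10.12, and HS arrays averaged 10.41 ± 0.26 (SD, n = 17) and ran from 9.82 to 10.80 with a median of 10.43. The groups overlapped widely. The difference was 0.33 (SE 0.08, adjusted p = 0.146), with 16 of 17 HS arrays above the TN mean of their own breed and the same sign on 5 of 5 slides.

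On that probe F1 TN arrays ran from 9.89 to 10.65 with a median of 9.98 and F1 HS arrays read 10.55, 10.76, 10.63, 10.59 and 10.55, so that 1 TN array reached into the HS range. The HS minus TN difference was 0.50 in F1 (SE 0.15, adjusted p = 0.603), 0.25 in LW (adjusted p = 0.795) and 0.25 in CR (adjusted p = 0.83). Without LW TN 2 and CR TN 1 it was 0.08 in LW and 0.23 in CR, and 15 of 17 HS arrays lay above the TN mean of their breed. On A_72_P413723 the difference was 0.16 in LW, 0.21 in CR and 0.29 in F1, and without those arrays -0.0012 in LW and 0.18 in CR. On A_72_P537603 it was 0.50 in LW, 0.04 in CR and 0.05 in F1, and without them 0.30 in LW and -0.15 in CR. On A_72_P077591 it was 0.13 in LW, 0.20 in CR and 0.13 in F1, and without them -0.01 in LW and 0.12 in CR. The order of the breeds thus differed between POU1F1 probes and changed with these arrays. The breed by temperature interaction was called for 0 of 9 probes (0% of all probes; 4.29% at an unadjusted p under 0.05), so that no difference in response between the breeds was shown. Within each breed 0 of 9 were called, again beside 0% of all probes.

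LHX3 averaged 12.10 ± 0.25 (SD, n = 16) in TN and 12.34 ± 0.18 (SD, n = 17) in HS. TN arrays ran from 11.45 to 12.45 with a median of 12.18, and HS arrays from 12.04 to 12.76 with a median of 12.33. The difference was 0.25 (SE 0.07, adjusted p = 0.199), with 17 of 17 HS arrays above the TN mean of their own breed and the same sign on 5 of 5 slides. By breed it was 0.25 in LW, 0.23 in CR and 0.27 in F1. Without LW TN 2 and CR TN 1 it was 0.11 in LW and 0.16 in CR, and 14 of 17 HS arrays lay above the TN mean of their breed.

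For the other probes HS minus TN was 0.17 for PITX1 (adjusted p = 0.346), 0.22 for A_72_P413723 (adjusted p = 0.326), 0.15 for A_72_P077591 (adjusted p = 0.627), 0.20 for A_72_P537603 (adjusted p = 0.749) and 0.14 for GATA2 (adjusted p = 0.661). The SOX2 probes read -0.01 (adjusted p = 0.987) and -0.08 (adjusted p = 0.781). Without the arrays that stood apart, both of them TN, A_72_P413713 was at 0.28 (adjusted p = 0.287), LHX3 at 0.19 (adjusted p = 0.432), PITX1 at 0.14 (adjusted p = 0.563), GATA2 at 0.11 (adjusted p = 0.798), A_72_P413723 at 0.16 (adjusted p = 0.591), A_72_P537603 at 0.065 (adjusted p = 0.941), A_72_P077591 at 0.08 (adjusted p = 0.835), and SOX2 A_72_P442012 turned to 0.14 (adjusted p = 0.645). PITX1 differed by 0.31 in LW, 0.09 in CR and 0.10 in F1, with 15 of 17 HS arrays above the TN mean of their own breed. Without both arrays it was 0.35 in LW and -0.01 in CR, with 11 of 17 HS arrays above. All 7 endothelial, 7 stromal, 7 leukocyte and 5 blood genes had a negative HS minus TN difference, beside 4268 negative and 6163 positive of 10431 named genes. The mean of the endothelial genes was highest on LW TN 2 and CR TN 1, both TN. Of these markers 1 was called, beside 2 of all named genes: HBB, the beta chain of haemoglobin, at -1.15 (adjusted p = 0.0307), and at -1.06 without those arrays, where it was not called (adjusted p = 0.114). The part of these markers in the positive differences of POU1F1 and LHX3 was not tested.

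Slide, the batch given by the scanner files, moved 2 of the 9 probes, beside 14.6% of all probes. A_72_P537603 of POU1F1 averaged 7.95 and 7.85 on slides 1 and 2 and 8.76, 8.52 and 8.63 on slides 3, 4 and 5 (F-test in limma, adjusted p = 1.094e-06). SOX2 A_72_P442012 averaged 11.86 on slide 2, which held both arrays that stood apart, and 11.33 to 11.56 on the others (adjusted p = 0.0142). For the other 7 probes the adjusted p was 0.126 to 0.865. With slide as a fixed block, the LW minus CR difference of A_72_P413713 was also called (adjusted p = 0.029), as were F1 minus LW for A_72_P413713 (0.35, adjusted p = 0.0474) and for A_72_P537603 (0.37, adjusted p = 0.0429).

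**Figure D3:**
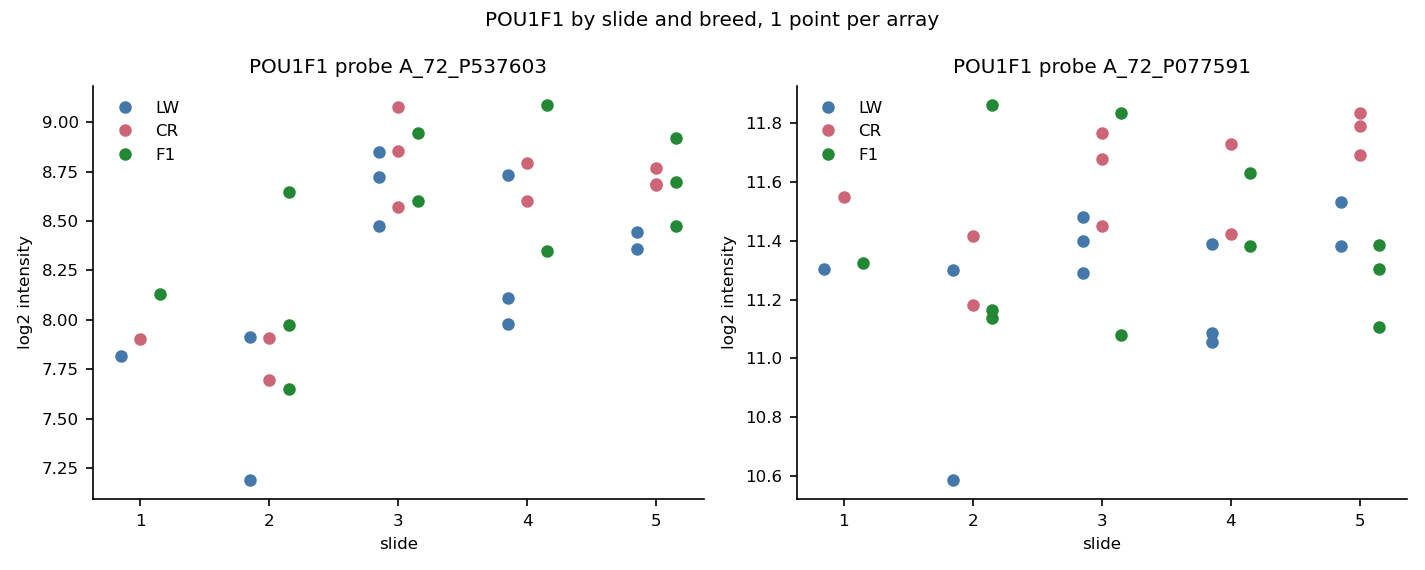
Log2 intensity (y axis) of a pair of POU1F1 probes on the 5 slides (x axis), 1 point per array, coloured by breed. A_72_P537603 is lower on slides 1 and 2 (means 7.95 and 7.85) than on slides 3 to 5 (8.76, 8.52 and 8.63), and A_72_P077591, with slide means of 11.24 to 11.50, does not show that step.

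The POU1F1 probes followed each other to different degrees. Over 33 arrays, with group means removed, Pearson r was 0.86 between A_72_P413713 and A_72_P413723 (0.78 without the arrays that stood apart) and 0.36 to 0.56 for the other 5 pairs of probes (0.15 to 0.43 without those arrays). A_72_P413713 and A_72_P537603, which share no annotated transcript, had r = 0.53, and 0.81 once slide means were removed. These are descriptions, since the probes share their arrays.

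The partners of these factors were then described with a list of 39 other pituitary transcription factors, of which 32 had a kept probe. In HS against TN none was called and the median difference was -0.03, beside 2 of 10431 named genes called and a median of 0.02. In LW against CR, 4 were higher and 2 lower (median 0.01), beside 426 higher and 302 lower of 10431 named genes. The 4 higher in LW were NR0B1 (DAX-1; 0.87, adjusted p = 0.0011), NR5A1 (SF-1; 0.56, adjusted p = 0.0142), FOXL2 (0.42, adjusted p = 0.0155) and the oestrogen receptor ESR1 (0.48, adjusted p = 9.3e-05), all factors known from gonadotrophs. The 2 lower were NEUROD1, a basic helix-loop-helix factor of the corticotroph lineage (-0.58, adjusted p = 0.000241), and GATA3 (-0.57, adjusted p = 0.0112).

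The 6 calls were unchanged without the arrays that stood apart and with slide as a fixed block. With LW HS 3 taken as CR, FOXL2 (adjusted p = 0.0579) and GATA3 (adjusted p = 0.0706) were no longer called. In F1 against CR, ESR1 (0.45), FOXL2 (0.44), NR0B1 (0.74), NR5A1 (0.47) and SOX4 (0.35) were higher and none lower, beside 456 higher and 361 lower of 10431 named genes. In F1 against LW none was called, beside 54 higher and 107 lower. These breed comparisons share arrays. With LW HS 3 taken as CR, NR5A1 was not called in F1 against CR (adjusted p = 0.073).

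Of 11 receptor genes of the hormone lineages 9 had a kept probe, and in LW against CR 3 were lower and 1 higher (median -0.27), beside 302 lower and 426 higher of 10431 named genes (median 0.0033). TRHR, the thyrotrophs' receptor for TRH (-0.48, adjusted p = 0.0035), GHRHR, the somatotrophs' receptor for GHRH (-0.40, adjusted p = 0.0121), and NR3C1, the glucocorticoid receptor (-0.21, adjusted p = 0.0279), were lower in LW. GNRHR, the gonadotrophs' receptor for GnRH, was higher in LW (0.59, adjusted p = 0.0112) and in F1 (0.64, adjusted p = 0.00841) than in CR, and SSTR5, a somatostatin receptor, was higher in F1 than in CR (0.50, adjusted p = 0.0396, and 0.0602 with LW HS 3 taken as CR). TRHR averaged 7.26 ± 0.34 in LW, 7.74 ± 0.19 in CR and 7.53 ± 0.23 in F1, and GNRHR 13.03 ± 0.30, 12.44 ± 0.33 and 13.08 ± 0.45 (SD, n = 11 each). With LW HS 3 taken as CR, GNRHR (adjusted p = 0.0738) and NR3C1 (adjusted p = 0.0874) were not called in LW against CR.

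**Figure D4:**
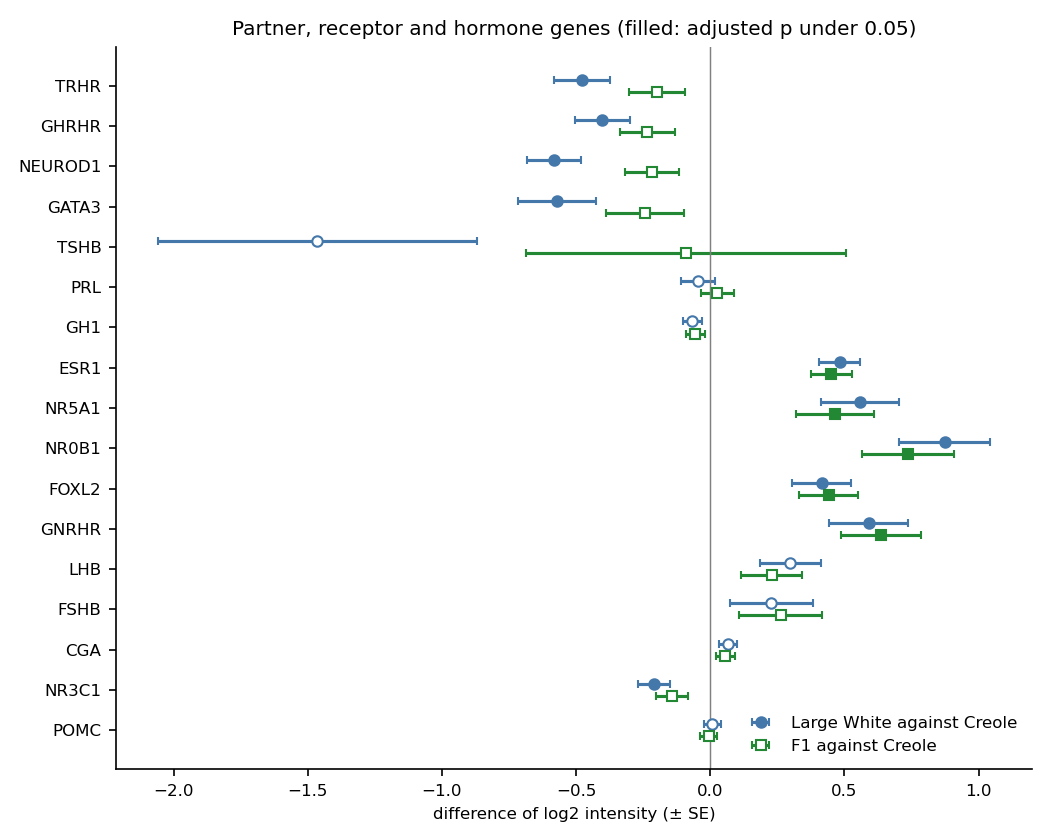
Differences of log2 intensity from CR (limma estimate ± SE) for LW (circles) and F1 (squares) in partner factors, lineage receptors and hormone genes; filled points have an adjusted p under 0.05. TRHR, GHRHR, NEUROD1 and GATA3 are lower in LW (-0.40 to -0.58) and ESR1, NR5A1, NR0B1, FOXL2 and GNRHR higher (0.42 to 0.87), while TSHB has the widest error, an SE of 0.59.

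None of the 7 hormone genes was called in LW against CR with all arrays. For TSHB the estimate was -1.47 with an SE of 0.59 (adjusted p = 0.155). Without the arrays at 8.55 and 10.57 LW averaged 14.53 ± 0.56 and CR 15.94 ± 0.26 (SD, n = 10 each), a difference of -1.41 (SE 0.18), and F1 averaged 15.33 ± 0.52 (SD, n = 11). These arrays were singled out by their TSHB values, so the levels without them are a description and no test of TSHB is given. The LW arrays then ran from 13.70 to 15.57 and the CR arrays from 15.47 to 16.35. Within LW, HS arrays reached at most 14.64 for TSHB and the 4 TN arrays other than LW TN 2 at least 14.76, a gap that was not tested. In CR, HS arrays (15.47 to 16.28) and TN arrays other than CR TN 1 (15.73 to 16.35) overlapped, as did F1 HS (14.57 to 16.20) and F1 TN (15.16 to 15.91).

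**Figure D5:**
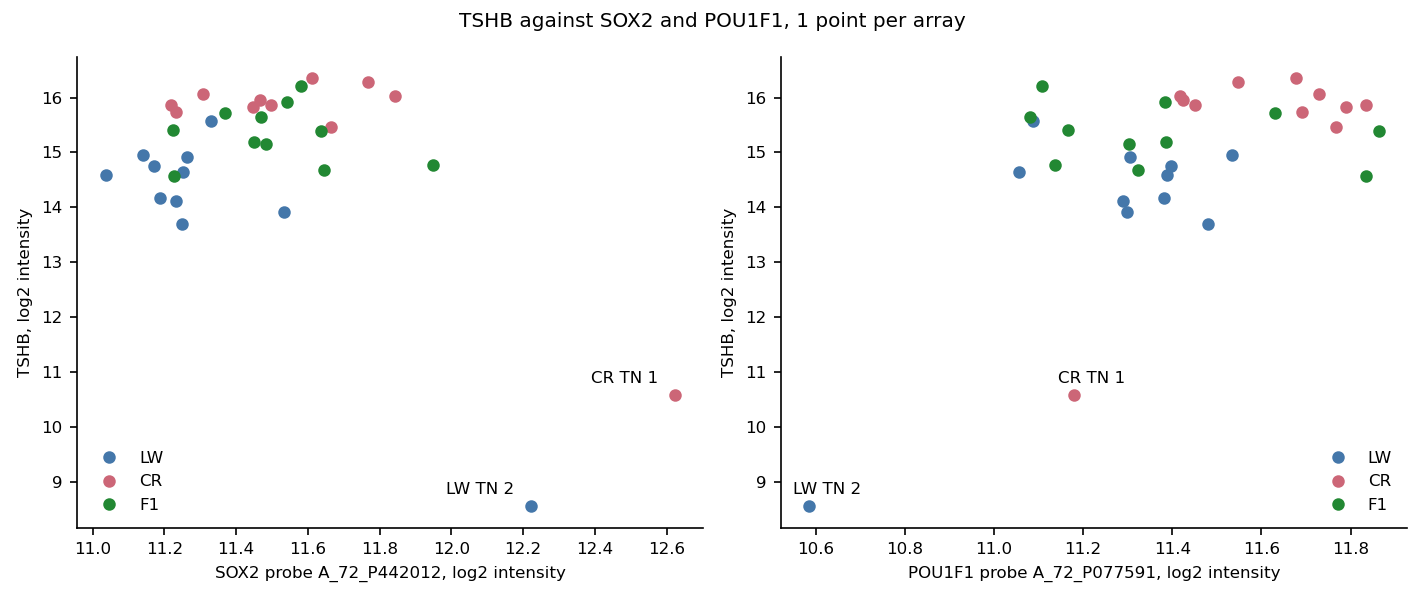
TSHB log2 intensity (y axis) against SOX2 probe A_72_P442012 and POU1F1 probe A_72_P077591 (x axes), 1 point per array, coloured by breed. LW TN 2 and CR TN 1 have the lowest TSHB (8.55 and 10.57), the highest SOX2 (12.22 and 12.62) and, for LW TN 2, the lowest POU1F1 (10.59), apart from the other 31 arrays.

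Whether a factor followed a gene of its lineage from animal to animal was tested on deviations from group means, with the brightest probe of each gene over 33 arrays, a two-sided permutation test and adjustment over the 10 pairs that could be run. POU1F1 and PRL had r = 0.60 (permutation p = 0.00797, adjusted p = 0.0797) and Spearman's rho = 0.52 (permutation p = 0.00488, adjusted p = 0.0488). Without the 2 arrays farthest from the median of POU1F1, r was 0.38, and without LW TN 2 and CR TN 1 it was 0.32, so that the relation rested in part on them. The rank correlation was 0.33 without LW TN 2 and CR TN 1, and its call was lost there and with the deposited log2 values. The other POU1F1 probes gave r of 0.42 to 0.64 with PRL and 0.16 to 0.28 without LW TN 2 and CR TN 1. Adjusted over the 13 pairs with other probes, none of these r was called. By the same permutation test, rho was called for A_72_P413723 (0.51, adjusted p = 0.0128) and A_72_P413713 (0.49, adjusted p = 0.0218). It was not called for A_72_P537603 (0.40, adjusted p = 0.0763).

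The pair GATA2 and CGA, the common alpha subunit of the glycoprotein hormones, had r = 0.55 (permutation p = 0.0181, adjusted p = 0.0906) and rho = 0.41 (adjusted p = 0.238), with r = 0.38 without the 2 farthest arrays and 0.44 without LW TN 2 and CR TN 1. For POU1F1 and TSHB r was 0.48 (adjusted p = 0.153) and turned to -0.32 without LW TN 2 and CR TN 1. SOX2 and SOX9, another factor of pituitary progenitors, had r = 0.23 (adjusted p = 0.298) on O992, and 0.57 with slide means removed. On A_72_P442012, among 13 pairs with other probes of the factors, r was 0.78 (permutation p = 0.00137, adjusted p = 0.0178) and 0.39 without LW TN 2 and CR TN 1. The remaining pairs (POU1F1 with GH1 and GHRHR, GATA2 with TSHB and LHB, PITX1 with POMC, LHX3 with CGA) had r between -0.04 and 0.31, and none was called.

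The genes whose levels followed each factor most closely, over 33 arrays with group means removed, were taken as the 3 highest positive correlations among named genes. For POU1F1 (A_72_P077591) they were UAP1 (r = 0.82), LIN52 (0.82) and CD164 (0.81), and for LHX3 the homeobox gene MSX1 (0.81), MAL2 (0.75) and PTRH2 (0.73). For PITX1 they were RNF115 (0.66), INSM1 (0.65), a zinc-finger factor of endocrine cells, and CCDC112 (0.63), for GATA2 SLC16A13 (0.65), KCTD20 (0.63) and HERC1 (0.58), and for SOX2 (O992) RPL17 (0.74), KIF11 (0.72) and RRP36 (0.72). All are descriptions of arrays that share batch and tissue composition. Without LW TN 2 and CR TN 1, r of LHX3 was 0.67 with MSX1, 0.54 with MAL2 and 0.54 with PTRH2. For POU1F1 it was then 0.75 with UAP1, 0.73 with LIN52 and 0.75 with CD164, for PITX1 0.55 to 0.67, for GATA2 0.47 to 0.58 and for SOX2 0.72 to 0.77.

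Markers of other cell types differed between breeds beside these results, where of 10431 named genes 426 were higher and 302 lower in LW than in CR and 456 higher and 361 lower in F1 than in CR. COL1A1, COL1A2, COL3A1 and DCN, 4 of 7 stromal genes, were lower in LW than in CR (median of the 7 genes -0.56). In F1 against CR, ACTA2, COL1A2, COL3A1 and DCN, also 4 of 7, were lower (median -0.38). Of these, 2 were still called with LW HS 3 taken as CR and 3 without LW TN 2 and CR TN 1. The mean of the 7 was 12.64 and 12.76 on LW TN 2 and CR TN 1 and ranged from 11.71 to 12.63 on the other arrays. Of 7 endothelial genes, KDR (0.94, adjusted p = 3.93e-05) and CDH5 (0.41, adjusted p = 0.0457) were higher in LW, the latter not called with LW HS 3 taken as CR (adjusted p = 0.0754) or left out (adjusted p = 0.0524). Of 12 stem and progenitor genes, 5 had a positive and 7 a negative LW minus CR difference (median -0.04). CXCL12 was called, higher in LW (1.04, adjusted p = 0.00174). In F1 minus CR, 3 were positive and 9 negative (median -0.08). S100B, a folliculo-stellate marker, was called lower in F1 (-0.39, adjusted p = 0.0424). That call was lost without LW TN 2 and CR TN 1 (adjusted p = 0.0504) and with LW HS 3 taken as CR (adjusted p = 0.0867). Of the endothelial genes TEK, and of the 7 leukocyte genes CSF1R, were lower in F1 than in both parental breeds, while KDR was higher in F1 than in CR (0.59, adjusted p = 0.0098), and the median of the 7 endothelial genes in F1 minus CR was -0.02. TEK differed by -0.72 from LW (adjusted p = 0.0304) and by -0.75 from CR (adjusted p = 0.00827), and CSF1R by -0.42 (adjusted p = 0.0402) and -0.39 (adjusted p = 0.0264). The CSF1R difference from LW had an adjusted p of 0.0859 with LW HS 3 taken as CR. Their part in the breed differences of POU1F1 and PITX1 was not tested.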

How the data were processed

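RNA from ground pituitary tissue was labelled with Cy3 and hybridised to 1-colour Agilent porcine arrays, 1 per animal. Per the file headers, the scanner files hold spot intensity, read with Agilent Feature Extraction 10.10.1.1 and not normalized. The deposited series also includes log2 values of 45667 probes, which the authors derived from the median intensity by quantile normalization without background correction, and these were used as an alternative (largest difference on the 9 probes 0.00795).

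Following that description, median intensity of 60306 non-control spots was quantile-normalized over 33 arrays, outlier spots were left out, log2 was taken and spots of 1 probe averaged. A probe was kept when, in some group, 75% or more of the arrays had it well above background (47083 probes, 78.1%). The model was fitted by limma (version 3.58.1, R 4.3.3, tables read with data.table, version 1.17.8) with breed and temperature as fixed effects, or 1 mean per group for the interaction and within breeds, at an adjusted p of 0.05. Pen, slaughter and parents, random effects in the study's methods, were not used here because the labels used here do not give them. By those methods, the pigs of a breed came in blocks of littermates and shared pens. The fits treat the arrays as independent, so the SEs and adjusted p take no account of litter or pen. Permutation tests used 100000 resamples (Python 3.11.15, scipy 1.17.1, numpy 2.4.6, pandas 2.3.3), and plots matplotlib 3.10.9. The fit was tested on simulated data. Array numbers follow sample order and pair nothing. The members and lists were chosen with earlier results of these data known. Named were the 3 genes most like each factor, all probes of the factors, the hormone and pair genes, list genes past the threshold and otherwise up to 3 per list with the smallest p. The number of arrays limits the precision. Alternatives were another source, scaling, background correction, filter, slide block, array weights, the label of LW HS 3, leaving out each array and, chosen after the data were seen, other probes of a factor, LW TN 2 and CR TN 1 left out together, and the slide block and the label of LW HS 3 for the gene lists.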

Additional observations from a re-analysis of the deposited data

Results flagged for a closer look

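In 54 sets of 5 or 6 arrays (9 probes in 6 groups), 7 had an array far from the others of its group by Dixon's test, where chance gives about 1 in 20. LW TN 2 gave 3 of them, LHX3 at 11.45 (the next LW TN array was at 12.06), PITX1 at 14.84 (next 14.70) and SOX2 A_72_P442012 at 12.22 (next 11.33). CR TN 1 gave 2, SOX2 A_72_P442012 at 12.62 (next 11.61) and POU1F1 A_72_P537603 at 7.70 (next 8.57). The others were LHX3 on CR HS 1 at 12.53 (next 12.34) and SOX2 O992 on LW HS 1 at 12.71 (next 13.28). No probe moved with heat in opposite directions on every HS array of 2 breeds.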

How the results depend on the processing

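No paired analysis was possible because the labels give no replicate numbers and the array numbers follow sample order. With the processed signal scaled to the 75th percentile, 1 probe was called in LW against CR (2 in the reported fit) and 0 in F1 against LW, against CR and against the parental mean (1 each). Without the filter on dim probes, F1 against CR had 0. With slide as a fixed block F1 against LW had 3, and with array weights 2. With LW HS 3 taken as CR, LW against CR and F1 against LW had 0, and without LW TN 2 and CR TN 1, F1 against CR had 0. HS against TN, the interaction and the fits within breeds had 0 under each alternative run. Leaving out each array in turn gave 1 to 3 probes in LW against CR, 0 to 1 in F1 against LW, 0 to 2 against CR and 0 to 1 against the parental mean. HS minus TN of SOX2 A_72_P442012 changed sign to 0.028 with the processed signal, 0.066 with array weights and 0.14 without both arrays, and ranged from -0.046 to 0.066 with 1 array left out. LW minus CR of SOX2 O992 ranged from -0.090 to 0.0003.

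With all kept probes of each gene, LW against CR called 12 partner factor probes (6 genes in the reported fit), 9 receptor probes (4), 1 hormone probe (0), 2 stem and progenitor probes (1), 16 stromal probes (4) and 2 blood probes (1). A gene can have several kept probes, so the larger counts come in part from the change of unit. Of all probes 6.53% were called in that comparison. Without LW TN 2 and CR TN 1 the count of hormone genes was 1 (0) in LW against CR, F1 against LW and F1 against CR. That gene is TSHB, by whose values those arrays were singled out, so these counts are no test of it. With LW HS 3 taken as CR, 2 receptors were called in LW against CR and 1 in F1 against CR (2). With slide as a fixed block, 1 receptor and 1 partner factor were called in F1 against LW (0).

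Correlations that changed sign without LW TN 2 and CR TN 1 were POU1F1 with TSHB (-0.32), GATA2 with TSHB (-0.024), PITX1 with POMC (-0.12) and LHX3 with CGA (-0.18). POU1F1 with GHRHR was -0.054 on A_72_P413713 and -0.0097 on A_72_P413723. With 1 array left out, r ranged from -0.043 to 0.19 for POU1F1 with GHRHR, -0.11 to 0.42 for GATA2 with TSHB, -0.30 to 0.033 for GATA2 with LHB and -0.049 to 0.18 for PITX1 with POMC, and reached 0.55 for POU1F1 with TSHB and 0.34 for LHX3 with CGA. Pairs past the threshold numbered 3 by Pearson (0 reported) and 3 by Spearman (1 reported) with slide means removed, and 0 by Spearman with the deposited table and without both arrays. With 1 array left out they numbered 0 to 1 by Pearson and 0 to 1 by Spearman. The causes were not tested. The unsettled strand of the probes on human sequence and the 5 or 6 arrays per group limit these values.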
